A study of Mus musculus with 24 samples.

Results

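The kinase cascade that runs from Ras through Raf and Mek to Erk was read in mouse thyroid tissue, on Affymetrix Mouse430A_2 arrays. Its members here were 7 genes, Braf, Araf, Hras, Nras, Map2k1, Map2k2 and Mapk3, and each probe set (a group of short probes that reads 1 transcript) annotated to any of them was taken. In the annotation used, 5 of the 7 genes had a probe set, giving 8 of the 22626 probe sets tested. Nras had 3, Map2k2 had 2, and Braf, Araf and Map2k1 had 1 each. Hras and Mapk3 were not analysed here.

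Of the 24 arrays, 6 held RNA of pooled normal glands, 4 of papillary cancers (PTC, which keep follicular features), 5 of anaplastic cancers (ATC, which lose them) and 9 of recurrent tumours. The study addresses resistance of mouse ATC to the inactivation of BRAF. The labels give no genotype, strain, treatment or age for any array, and they do not say how or in which mice BRAF was inactivated. The titles of 4 normal pools carry WT and those of the other 2 carry Cre, with no promoter named. Pooling evens out differences between single glands, and the labels leave unsaid whether each tumour is from its own animal. The p-values therefore measure only how these samples scatter, which may be technical. All values are log2 intensities.

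Ras proteins are small GTPases that receptor kinases switch on at the cell membrane. Loaded with GTP, they recruit the Raf kinases, which phosphorylate the Mek kinases, and these in turn phosphorylate Erk. Active Erk drives growth and also induces its own inhibitors, the Dusp phosphatases, Sprouty and Spred proteins. Activating changes in RAS or BRAF are a common start of thyroid cancers that arise from follicular cells. Gain or loss of kinase activity by mutation or phosphorylation is not visible in transcript levels.

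Values over all probe sets ran from 2.71 to 14.96, and array medians from 7.38 to 7.58. The median SD of a probe set was 0.189 among normal pools, 0.145 among PTC, 0.271 among ATC and 0.498 among recurrent arrays. The arrays also differ in the kind of title. JK stands in the titles of 4 normal, 4 PTC, 2 ATC and 3 recurrent arrays, while the other 3 ATC and 6 recurrent arrays carry a bare number and the other 2 normal pools are those with Cre. The ratio of the 3′ to the 5′ Gapdh control probe set, a sign of RNA length, differed with the kind of title on ATC and recurrent arrays. It was 0.82 to 0.96 (log2) on ATC arrays with JK and 0.06 to 0.15 without, and 0.36 to 1.07 against -0.02 to 0.17 on recurrent arrays. On normal arrays it was 0.64 to 0.85 with JK and 0.64 to 0.98 without, and on PTC arrays 1.11 to 1.6. What the titles stand for is not given, and results are given within each kind of title where that changes them.

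The promoters of Braf and Nras are shown because these were the members whose levels differed between groups. They are RefSeq sequences of the assembly GRCm38.p6, from 250 bases before to 50 bases after the annotated start, 5′ to 3′ on the gene's strand. Braf is at chr6:39725414-39725713 on the minus strand and Nras at chr3:103058035-103058334 on the plus strand. Capitals mark matches to the GC box, GGGCGG on either strand, the element bound by Sp1-type factors.
Braf: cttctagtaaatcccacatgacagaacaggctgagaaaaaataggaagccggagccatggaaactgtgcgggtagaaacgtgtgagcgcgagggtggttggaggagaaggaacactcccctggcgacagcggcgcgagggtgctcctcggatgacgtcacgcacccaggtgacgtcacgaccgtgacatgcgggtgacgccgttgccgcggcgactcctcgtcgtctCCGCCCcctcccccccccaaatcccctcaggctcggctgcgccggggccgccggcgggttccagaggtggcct
Nras: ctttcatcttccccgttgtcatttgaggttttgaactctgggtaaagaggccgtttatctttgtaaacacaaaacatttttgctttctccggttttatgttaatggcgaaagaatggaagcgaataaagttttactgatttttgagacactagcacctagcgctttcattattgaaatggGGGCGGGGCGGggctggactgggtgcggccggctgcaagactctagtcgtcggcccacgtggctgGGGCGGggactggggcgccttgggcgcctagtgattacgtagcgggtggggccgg
The Braf window held 1 GC box match near its start site and the Nras window 3, of which a pair overlaps. Matches to the CCAAT box (CCAAT), the ETS core (CCGGAA) and the TATA box (TATAAA), searched on both strands, numbered 0 in each window. Among 32851 promoters of this length 35.7% held the GC box, 37.4% CCAAT, 14.9% the ETS core and 13.6% TATAAA. The share of G and C was 65.0% for Braf and 52.3% for Nras, beside a median of 52.7% over all promoters. The Araf window held 3 CCAAT and 1 ETS core match and the Map2k1 window 4 GC box, 2 CCAAT and 1 ETS core match, while the Map2k2 window held 2 GC box matches. The arrays do not show from which start, or from which allele, a transcript came.

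In the ATC arrays the signal of 1 Raf kinase gene, Braf, was 33.4-fold above normal pools, and that of 1 Ras gene, Nras, was 2.08- to 3.19-fold above them by its 3 probe sets. In the recurrent arrays Braf was 23.8-fold below ATC, while Nras was 1.82- to 2.9-fold above normal pools and did not pass the test against ATC. The Braf readings of normal pools, and of all recurrent arrays but array 2, lay below the lowest array median of 7.38. The Braf folds are thus ratios of intensities that involve dim readings. Araf, the other Raf gene measured, and the Mek genes Map2k1 and Map2k2 did not pass the test in any of the 6 comparisons.

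**Figure D1:**
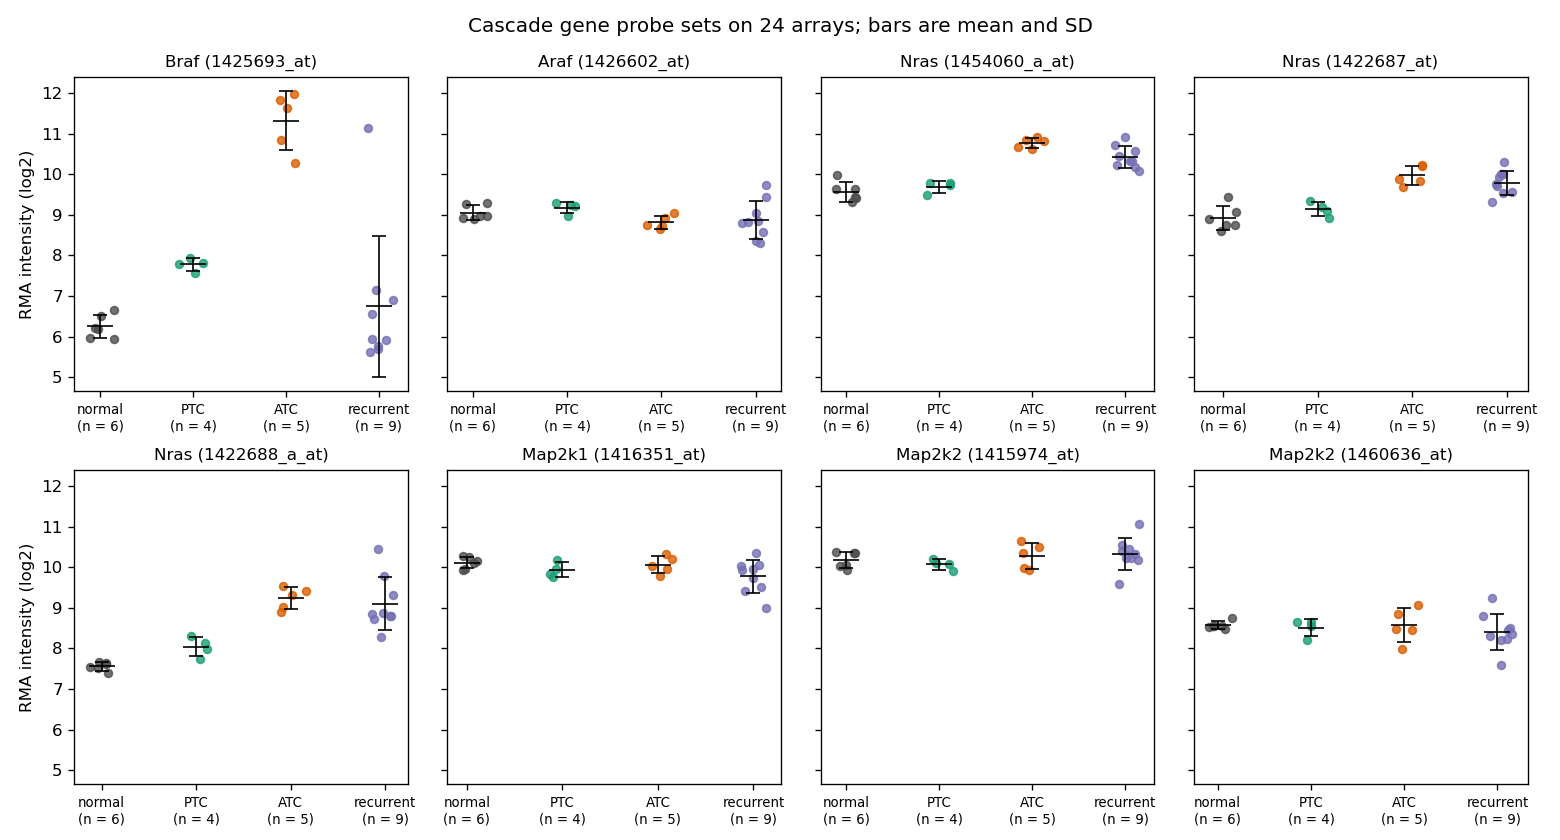
Level of each of the 8 probe sets (y axis, RMA intensity, log2) on the 24 arrays, grouped by tissue label (x axis); points are arrays and bars are mean and SD. Braf sits between 10.29 and 11.98 in ATC and at or below 7.14 in 8 of 9 recurrent arrays, whereas the Nras probe sets are high in both ATC and recurrent arrays.

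Nras encodes a Ras GTPase, the switch at the top of the cascade. Its brightest probe set (1454060_a_at) read 9.31 at the lowest, 9.53 at the median and 9.98 at the highest in the 6 normal pools. In PTC it read 9.80, 9.48, 9.72 and 9.78, and in ATC 10.81, 10.62, 10.84, 10.68 and 10.92. In the 9 recurrent arrays the lowest value was 10.08, the median 10.33 and the highest 10.92. Thus PTC overlapped with normal, while every ATC and every recurrent array lay above every normal and PTC array. The second probe set (1422687_at) ran from 8.60 to 9.44 in normal, 8.93 to 9.35 in PTC, 9.69 to 10.23 in ATC and 9.32 to 10.30 in recurrent arrays. Here 1 normal pool, with Cre in its title, and 1 PTC array, at 9.35, lay above the lowest recurrent array. The third (1422688_a_at) ran from 7.39 to 7.66, 7.75 to 8.30, 8.89 to 9.53 and 8.28 to 10.44 in the same order of groups, with recurrent array 2 the highest and 1 recurrent array within the PTC range.

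By limma, Nras rose in ATC against normal by 1.21 ± 0.14 (SE, n = 5 and 6, adjusted p = 1.77e-06), 1.05 ± 0.17 (6.21e-05) and 1.67 ± 0.26 (4.48e-05) on the 3 probe sets. It rose in ATC against PTC by 1.08 ± 0.16 (adjusted p = 6.83e-05), 0.83 ± 0.19 (0.00379) and 1.19 ± 0.29 (0.00642). In recurrent arrays it rose against normal by 0.86 ± 0.12 (adjusted p = 1.93e-05), 0.87 ± 0.15 (0.000106) and 1.54 ± 0.23 (2.3e-05), and against PTC by 0.73 ± 0.14 (0.000783), 0.65 ± 0.17 (0.00762) and 1.05 ± 0.26 (0.00507). The PTC values exceeded normal by 0.13, 0.23 and 0.48, with limma adjusted p-values of 0.699, 0.516 and 0.309. The recurrent values were below ATC by differences of -0.35, -0.18 and -0.14 (adjusted p = 0.165, 0.612 and 0.832 by limma), with 95% intervals reaching from -0.63 to -0.08, from -0.51 to 0.14 and from -0.64 to 0.36.

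The Nras results differed in strength with the title. Among arrays with JK in the title, recurrent against normal was 1.01, 1.17 and 2.02 (adjusted p = 8.85e-05, 3.68e-05 and 0.000251 by limma), and ATC against normal 1.27, 1.02 and 1.59 (7.78e-05, 0.000417 and 0.00401). Without JK, where normal means the 2 Cre pools, recurrent against normal was 0.61, 0.46 and 1.22 with adjusted p-values of 0.159, 0.306 and 0.0533. ATC against normal was there 1.01, 0.85 and 1.66 (adjusted p = 0.044, 0.0875 and 0.0238 by limma). Within JK titles PTC against normal was 0.40 (adjusted p = 0.0373 by limma) on the second probe set. Of the ATC against PTC values within JK titles, that of the third probe set, 1.06, had an adjusted p of 0.06. In a fit of the 2 groups alone its recurrent against PTC value of 1.05 had a limma adjusted p of 0.0506.

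Braf encodes a Raf kinase, and the study addresses resistance to the inactivation of BRAF. The labels do not say on which arrays, or by what means, BRAF was inactivated. Braf was read by 1 probe set (1425693_at). Its lowest, median and highest values in the normal pools were 5.95, 6.21 and 6.67. The 4 PTC arrays read 7.81, 7.95, 7.58 and 7.78, and the 5 ATC arrays 11.98, 11.62, 10.83, 10.29 and 11.84. In the recurrent arrays the lowest value was 5.62 and the median 5.93, and the highest, on array 2, was 11.14. The next highest recurrent value was 7.14. Normal, PTC and ATC arrays did not overlap, 8 recurrent arrays lay below every PTC array, and recurrent array 2 lay within the ATC range. The labels do not say whether this probe set also reads an introduced BRAF transcript, which was not tested.

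On the limma fit of all arrays, Braf rose in ATC by 5.06 ± 0.66 (SE, n = 5 and 6, adjusted p = 5.66e-06) against normal and by 3.54 ± 0.73 (n = 5 and 4, adjusted p = 0.00197, 11.6-fold) against PTC. In recurrent arrays against ATC it fell by 4.57 ± 0.61 on the log2 scale (n = 9 and 5, adjusted p = 9.81e-05). The PTC mean exceeded normal by 1.53 ± 0.71, with a limma adjusted p of 0.183. The recurrent mean differed from normal by 0.49 ± 0.58 (adjusted p = 0.558) and from PTC by -1.04 ± 0.66 (adjusted p = 0.279). A single spread for all groups enters this fit, and the SD of Braf was 0.29 among normal, 0.15 among PTC, 0.72 among ATC and 1.74 among recurrent arrays. Without recurrent array 2 the PTC difference from normal stayed at 1.53 with an adjusted p of 0.00239, and recurrent against PTC became -1.59 with an adjusted p of 0.00067.

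Exact two-sided permutation tests of the Braf value, adjusted over the 6 comparisons, gave p = 0.013 for ATC against normal, 0.019 for PTC against normal, 0.0238 for ATC compared with PTC and 0.013 for recurrent compared with ATC. The unadjusted exact permutation p-values were 0.00433, 0.00952, 0.0159 and 0.003, and the first 3 are the smallest that these group sizes allow. Recurrent against normal had p = 0.711 and recurrent against PTC p = 0.344 in the exact permutation test. With recurrent array 2 left out, a choice made after seeing the data, the exact permutation p was 0.00155 for recurrent against ATC, 0.815 against normal and 0.00404 against PTC. PTC against normal was thus called by the permutation test and not by limma on all arrays.

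Within arrays titled JK, Braf in ATC exceeded normal by 5.53 (adjusted p = 0.00174), and without JK by 4.78 (adjusted p = 0.0012), by limma. Recurrent against ATC was -3.81 with JK (n = 3 and 2, adjusted p = 0.0613), where array 2 is 1 of the 3 recurrent arrays, and -4.87 without (n = 6 and 3, adjusted p = 0.000652). All PTC arrays carry JK, so no PTC comparison exists without it.

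Araf encodes a Raf kinase related to Braf. Its values ran from 8.89 to 9.29 in normal, with a median of 8.98, and were 8.97, 9.29, 9.23 and 9.22 in PTC. In ATC they were 8.92, 9.04, 8.75, 8.71 and 8.66, and in recurrent arrays the lowest was 8.31, the median 8.83 and the highest 9.73. The ranges of all 4 groups overlapped. Araf differed from normal by -0.24 in ATC (95% interval -0.64 to 0.17), 0.12 in PTC (-0.31 to 0.56) and -0.17 in recurrent arrays (-0.53 to 0.18). The limma adjusted p-values over its 6 comparisons ran from 0.274 to 0.903.

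Map2k1 and Map2k2 encode Mek1 and Mek2, the kinases that phosphorylate Erk. Map2k1 (1416351_at) had a lowest, median and highest value of 9.94, 10.13 and 10.28 in normal pools. It read 9.85, 9.76, 9.96 and 10.19 in PTC, 10.02, 9.79, 10.21, 10.33 and 9.96 in ATC, and 9.0, 9.93 and 10.36 at the lowest, median and highest of the recurrent arrays. The groups overlapped. ATC differed from normal by -0.05 (95% interval -0.43 to 0.32) and recurrent arrays by -0.34 (-0.66 to -0.01, limma adjusted p = 0.109). That recurrent difference reached a limma adjusted p of 0.0386 without recurrent array 2 (-0.41) and 0.0292 after another quantile normalization (-0.41).

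Map2k2 was read by a brighter probe set (1415974_at), from 9.92 to 10.38 in normal, 9.90 to 10.21 in PTC, 9.93 to 10.64 in ATC and 9.58 to 11.05 in recurrent arrays. Its dimmer probe set (1460636_at) ran from 8.48 to 8.76, 8.20 to 8.66, 7.98 to 9.08 and 7.59 to 9.25. The recurrent arrays held the lowest and the highest value of each. ATC against normal was 0.10 (95% interval -0.29 to 0.48) and 0.00 (-0.44 to 0.44), and recurrent against normal 0.15 (-0.19 to 0.48) and -0.16 (-0.55 to 0.22), so a change by a full log2 unit lay outside these intervals.

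**Figure D2:**
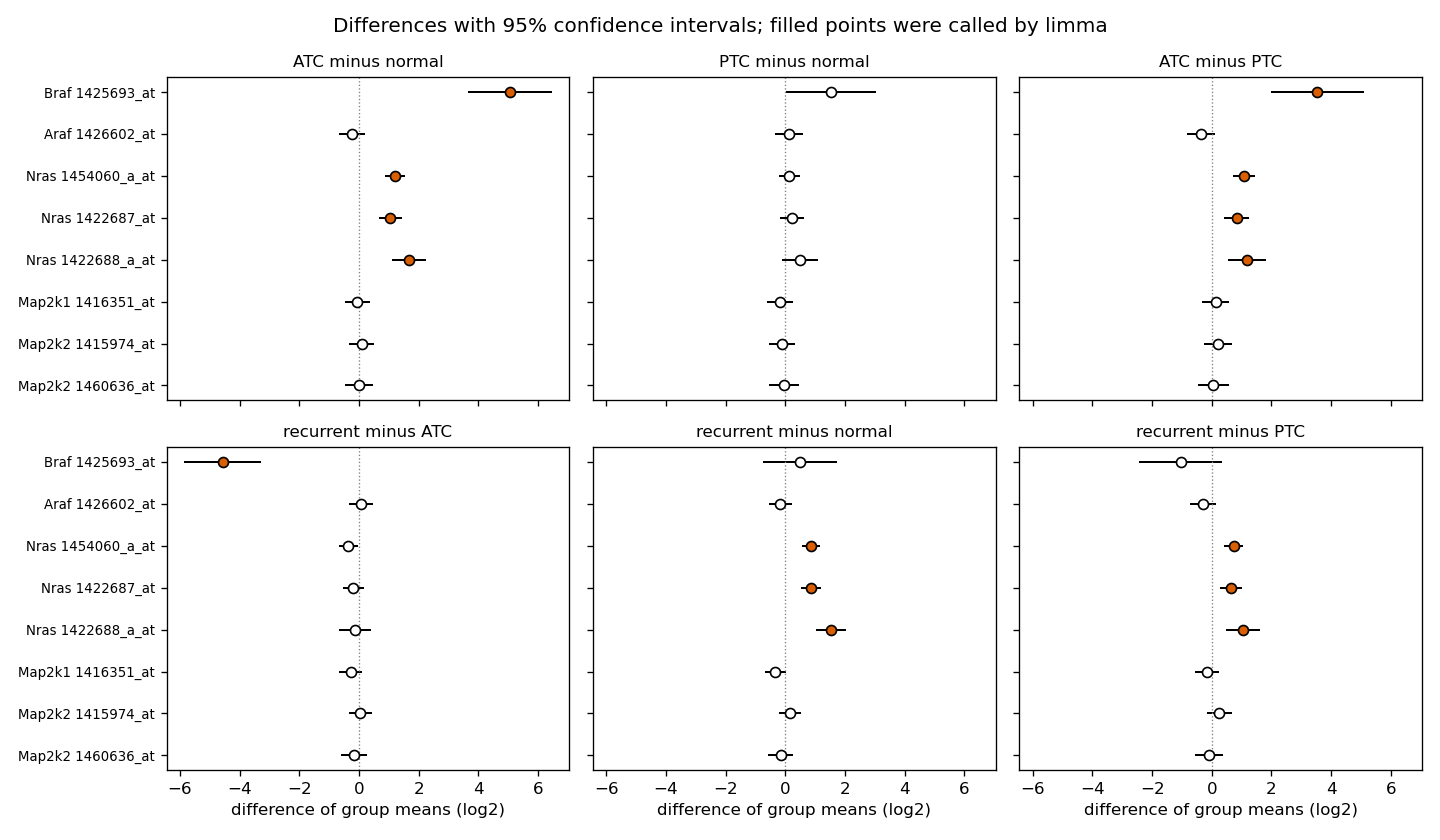
Difference of group means (x axis, log2) of the 8 probe sets in the 6 comparisons; points are limma estimates, lines are 95% confidence intervals, and filled points had an adjusted p under 0.05. Braf and the 3 Nras probe sets are filled in ATC against normal and against PTC, Nras alone in recurrent against normal and against PTC, and Braf alone in recurrent against ATC.

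Counted over the members, 4 of 8 probe sets rose and 0 fell in ATC against normal, where 31.5% of all probe sets were called, 14.7% higher and 16.7% lower. In ATC against PTC again 4 rose and 0 fell, beside 17.2% called, 8.64% higher and 8.56% lower. In recurrent arrays 3 rose and 0 fell against normal (32.1% called, 15.2% higher and 16.9% lower) and 3 rose and 0 fell against PTC (22.5% called, 11.3% higher and 11.1% lower). Against ATC 0 rose and 1 fell, beside 3.35% called, 0.888% higher and 2.47% lower. In PTC against normal limma called 0 of 8, 1 of them at an unadjusted p under the threshold and 1 adjusted without recurrent array 2, beside 11.8% called, 5.16% higher and 6.66% lower. Since 3 of the probe sets read Nras, the 4 calls are those of 2 genes, and comparisons with normal share the same 6 pools. The median difference of the 8 was 0.58, 0.52, 0.32, 0.08, -0.17 and 0.13 in this order, beside -0.06, -0.04, -0.01, 0.01, 0.06 and -0.01 over all probe sets.

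The rule asks for Braf against the other cascade members. For this the Braf value was subtracted from each other probe set on the same array, and groups were compared on these differences. The per-array values in this paragraph have the opposite sign, Braf minus the other probe set. The offset between probe sets has no meaning of its own, since probes differ in brightness, but its change between groups does. Braf minus Araf ran from -3.10 to -2.46 in normal, -1.66 to -1.17 in PTC, 1.57 to 3.18 in ATC and -3.52 to -1.66 in recurrent arrays other than array 2, which read 2.83. Braf minus Map2k1 ran from -4.21 to -3.61, -2.40 to -1.81, -0.04 to 1.96 and -4.44 to -1.86, with 0.78 on recurrent array 2. Braf minus the brightest Nras probe set ran from -3.75 to -2.76, -2.15 to -1.53, -0.39 to 1.17 and -4.96 to -3.32, with 0.58 on that array. For each of these 3 genes the ATC arrays lay above all normal and PTC arrays, and recurrent array 2 lay within the ATC range.

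The group comparisons that follow are of the other probe set minus Braf. In ATC against normal the changes of all 7 other probe sets differed from that of Braf, from -5.30 ± 0.76 (Araf, adjusted p = 3.52e-09) to -3.39 ± 0.70 (Nras 1422688_a_at, adjusted p = 8.86e-06) by limma. In ATC against PTC all 7 differed, from -3.90 (Araf) to -2.35 (Nras 1422688_a_at), with limma adjusted p-values up to 0.00403. In recurrent against ATC all 7 differed with the opposite sign, from 4.22 (Nras 1454060_a_at) to 4.64 (Araf), with adjusted p-values up to 4.24e-08. These shares are not particular to the cascade: 99.1%, 97.6% and 99.8% of all other probe sets differed from Braf in the same comparisons. In PTC against normal 0 of 7 were called, beside 4.05% of all, with values from -1.71 (Map2k1, limma adjusted p = 0.112) to -1.04 (Nras 1422688_a_at, adjusted p = 0.199). In recurrent against normal 0 of 7 (3.61% of all) and in recurrent against PTC 0 of 7 (2.35% of all) were called by limma, at unadjusted p-values down to 0.0918 and 0.00382. Without recurrent array 2 all 7 were called in PTC against normal and in recurrent against PTC, and 2, both of Nras, in recurrent against normal. Calls among all other probe sets were not counted without array 2, so these counts are not shown to be particular to the cascade. Every difference in this fit contains the same Braf values, so sharing the spread between probe sets counts too much information. Without that sharing, an alternative chosen after seeing the data, the calls stayed at 7, 7 and 7 and at 0, 0 and 0, and the adjusted p-values in ATC against normal ran up to 1.9e-05.

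**Figure D3:**
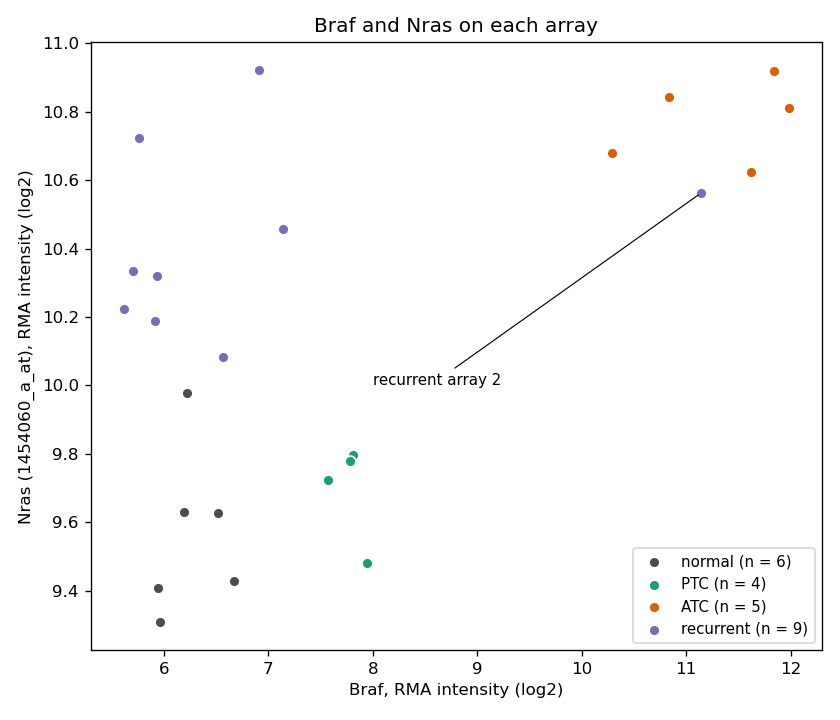
Braf (x axis) against Nras 1454060_a_at (y axis), both RMA intensity on the log2 scale, 1 point per array, coloured by group. The 5 ATC arrays and recurrent array 2 lie at high Braf and high Nras, the other 8 recurrent arrays at low Braf with Nras at 10.08 or above, and the normal pools at low Braf and Nras up to 9.98.

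The members moved together to different degrees over the 24 arrays, which fall into 4 groups and share normalization, so these correlations only describe. The 3 Nras probe sets correlated with each other at Pearson r of 0.87 to 0.96 and the 2 Map2k2 probe sets at 0.79. Braf and Nras correlated at 0.49 to 0.56, and Braf and Araf at -0.26. By the same measure the 5 genes most like Braf over all 24 arrays were Ivl (r = 0.94), which encodes involucrin of the cornified envelope, Csf2 (0.922), which encodes the cytokine GM-CSF, Shf (0.899), Mcpt1 (0.897), a mast cell protease, and Med10 (0.893), a Mediator subunit. Ivl read 5.40 ± 0.16 (SD, n = 6) in normal, 6.26 ± 0.12 (n = 4) in PTC, 9.55 ± 0.98 (n = 5) in ATC and 5.77 ± 0.94 (n = 9) in recurrent arrays, and 7.99 on recurrent array 2. Csf2 read 6.14 ± 0.33, 8.56 ± 0.43, 10.25 ± 0.55 and 6.39 ± 1.88 in the same order.

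Nearest to Nras were Pmaip1 (r = 0.94), an inducer of cell death, Gsr (0.936), glutathione reductase, and Coro1c (0.935), an actin-binding protein. Gsr read 8.70 ± 0.18 in normal (SD, n = 6), 8.90 ± 0.21 in PTC (n = 4), 11.09 ± 0.32 in ATC (n = 5) and 9.96 ± 0.50 in recurrent arrays (n = 9). For Araf they were Slc2a8 (0.893), Angel1 (0.85) and Recql5 (0.849), for Map2k1 Norad (0.819), Cpne1 (0.805) and Tor1aip2 (0.802), and for Map2k2 Fam53a (0.864), Sgta (0.84) and Get4 (0.83).

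Recurrent array 2 was set beside ATC on every probe set, a comparison made after its Braf value was seen. Its value lay within the ATC range for 9937 of 22626 probe sets (43.9%). For 66 of these (0.292%) the other 8 recurrent arrays all lay below the ATC range, and for 26 (0.115%) all lay above it. In 5 (0.0221%) the gap between the lowest ATC and the highest other recurrent value exceeded 1 log2 unit. These were Braf (gap 3.15), Mcpt1 (2.58), Prkg2, a cyclic GMP-dependent kinase (1.72), Csf2 (1.42) and Lratd1 (1.2). Braf had the widest gap, but array 2 was singled out by its Braf value, so that rank is no separate result. The same counts were not made for the other 8 recurrent arrays. The next gaps were those of Cdh6, a cadherin gene (0.82), and of 2 probe sets of Rasgrf1, which encodes a factor that loads Ras with GTP (0.72 and 0.71). On Mcpt1 array 2 read 8.93, the other recurrent arrays 4.26 to 4.64 and ATC 7.21 to 10.11. Over all probe sets array 2 correlated with the ATC mean at 0.92 and with the mean of the other recurrent arrays at 0.918, while the other recurrent arrays lay at 0.879 to 0.97 with ATC.

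**Figure D4:**
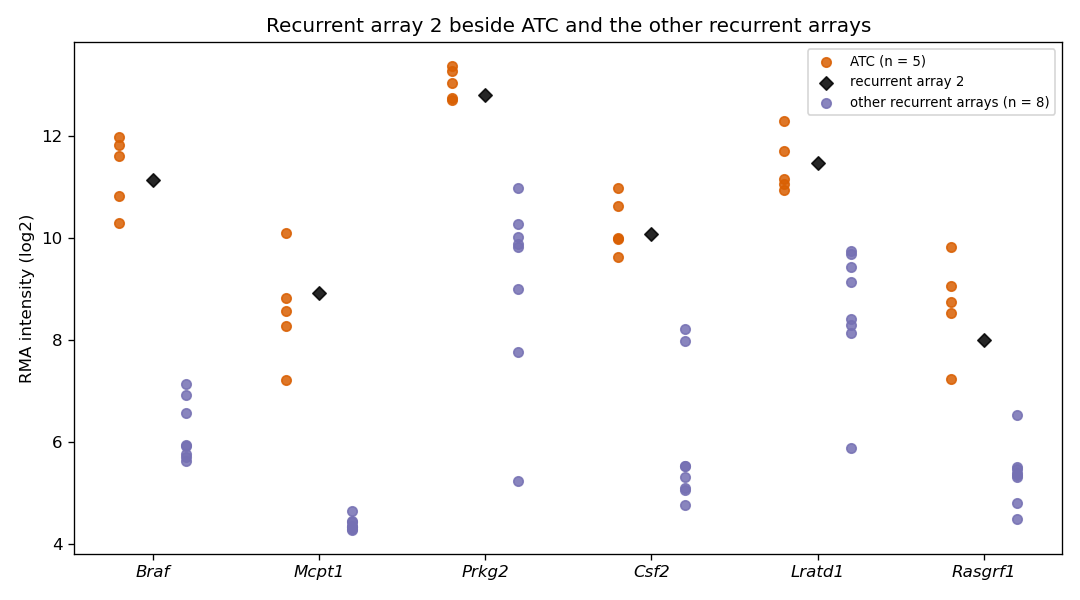
RMA intensity (y axis, log2) of the 5 genes with a gap above 1 log2 unit and of Rasgrf1 on the ATC arrays (circles, n = 5), recurrent array 2 (diamond) and the other 8 recurrent arrays (circles, n = 8). For Braf the diamond is at 11.14, the ATC arrays are at 10.29 to 11.98, and the other recurrent arrays are at 5.62 to 7.14.

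The genes next to Braf along its chromosome, looked up after its value was seen, gave no call in its direction in the 3 comparisons where Braf itself was called. Of the 10 nearest measured genes, 5 on each side, limma called 0 higher and 2 lower in ATC against normal, namely Ndufb2 (-1.28, adjusted p = 0.000612) and Tas2r108 (-0.48, adjusted p = 0.0234), and 0 in ATC against PTC or in recurrent against ATC. Over all probe sets 31.5%, 17.2% and 3.35% were called in these comparisons, so few calls among 10 genes are not particular to this region. In the other comparisons Kdm7a was higher in recurrent than in normal arrays (0.82, adjusted p = 0.0432), where 3 neighbours were lower, and Mkrn1 was lower in recurrent than in PTC arrays (-0.95, adjusted p = 0.00862), both the sign of the Braf difference there. Ndufb2 was lower in PTC than in normal arrays. Over all probe sets 32.1% were called in recurrent against normal, 22.5% in recurrent against PTC and 11.8% in PTC against normal. Of the 10 around Nras, 2 were higher in ATC against normal, Tspan2 (1.57, adjusted p = 0.00238) and Olfml3 (2.76, adjusted p = 0.000305), and 1 was lower, Vangl1 (-0.54, adjusted p = 0.0137), near the 31.5% of all probe sets called there. Trim33, Bcas2, Sike1 and Hipk1, among the neighbours of Nras, were not called in that comparison.

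The rest of the pathway was read through lists of genes by role, each gene through its brightest probe set. Among other Ras, Raf and Erk family genes 3 of 6 were measured. Rras2, a Ras relative, rose in ATC against normal by 1.13 ± 0.25 (adjusted p = 0.00135), but its other probe set differed by -0.45 (adjusted p = 0.137) by limma. In recurrent arrays against ATC Rras fell by 0.58 ± 0.15 on the log2 scale (adjusted p = 0.0317).

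Of 9 Ras activators and adaptors measured, 2 rose and 1 fell in ATC against normal, near the 31.5% of all probe sets called in either direction. Rasgrf1 rose by 2.82 ± 0.47 (adjusted p = 0.000101) against normal and by 2.02 ± 0.53 (adjusted p = 0.0103) against PTC, and it was lower in recurrent arrays than in ATC by a difference of -3.04 ± 0.44 (adjusted p = 0.00022). Its other 2 probe sets had the same sign in each. For 1 of them the limma adjusted p was 0.142 in ATC against PTC and 0.0626 in recurrent against ATC. Its mean was 5.86 ± 0.34 over normal pools (SD, n = 6), 6.66 ± 0.53 over PTC (n = 4), 8.68 ± 0.94 over ATC (n = 5) and 5.64 ± 1.04 over recurrent arrays (n = 9). Shc1, an adaptor between receptors and Ras activators, rose by 0.99 in ATC, 1.28 in PTC and 0.79 in recurrent arrays against normal (adjusted p up to 0.000978). Its other probe set differed by 0.54, 0.50 and 0.45 in the same order (limma adjusted p = 0.0323, 0.119 and 0.0391). Rasgrp2, a calcium-responsive activator of small GTPases, was lower than normal, with differences of -0.72 in ATC, -1.0 in PTC and -0.67 in recurrent arrays (adjusted p up to 0.0182).

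Of 9 Ras inhibitors, 4 rose and 0 fell in PTC against normal, beside 5.16% and 6.66% of all probe sets. Rasa2, a GTPase-activating protein that switches Ras off, rose by 2.44 ± 0.20 in PTC (adjusted p = 2.69e-08), from 8.98 ± 0.03 (SD, n = 6) to 11.42 ± 0.33 (n = 4), and was 9.40 ± 0.14 in ATC (n = 5) and 8.89 ± 0.43 in recurrent arrays (n = 9). Spred1, an Erk-induced inhibitor of Raf activation, rose by 2.38 ± 0.39 in PTC (adjusted p = 0.000264) and was lower in ATC than in PTC by a difference of -1.48 (adjusted p = 0.0134). In ATC against normal 3 inhibitors rose and 1 fell, beside 14.7% and 16.7% of all probe sets. By limma Rasa3 rose by 1.79 (adjusted p = 0.001) and Rasa1 by 1.36 (adjusted p = 0.00204), and Rasal1 fell by 0.67 (adjusted p = 0.0476). The count of rises there was 6 in a fit of the 2 groups alone or with array weights and 1 within each kind of title. Of all 22626 probe sets, 10687 were called with the 2 groups alone and 13002 with array weights. Within JK titles 6356 were called and without them 1768. In recurrent against PTC 0 rose and 6 fell, beside 11.3% and 11.1% of all probe sets. The falls were 3 in a fit of the 2 groups alone, where 2760 of 22626 probe sets were called. Among the 6 that fell was Dab2ip, a Ras GTPase-activating protein (-1.29, adjusted p = 1.12e-05 by limma).

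Of 15 scaffolds and modulators of Raf or Erk, 5 rose and 1 fell in ATC against normal, beside 14.7% and 16.7% of all probe sets, with counts of rises of 2 to 8 over the alternatives. Over these alternatives 1768 to 13002 of all probe sets were called in either direction. Shoc2, which helps release Raf from its inhibited form, rose by 1.09 ± 0.27 (adjusted p = 0.00366), and the 14-3-3 gene Ywhag, whose product binds phosphorylated Raf, by 1.28 ± 0.35 (adjusted p = 0.00727). The other Shoc2 probe set differed by 0.56 (limma adjusted p = 0.0642). In recurrent against ATC 0 rose and 3 fell, beside 0.888% and 2.47% of all probe sets. Among those that fell was Pea15a, which holds Erk in the cytoplasm, at -1.10 ± 0.29 (adjusted p = 0.0393 by limma). The count of falls was 0 in a fit of the 2 groups alone and without JK titles, where 127 and 65 of 22626 probe sets were called. It was 1 within JK titles, with the WT pools alone or with arrays centred on their medians. In these fits 1345, 610 and 718 probe sets were called. Of the 6 probe sets of Ywhab, another 14-3-3 gene, 5 were lower in recurrent arrays than in normal, at -0.50 to -0.14, and 1 was higher, at 0.96.

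Of 7 Erk substrate kinases and factors, 2 rose and 0 fell in ATC against normal, near the 31.5% of all probe sets called there. Elk3, an ETS factor phosphorylated by Erk, rose by 2.17 ± 0.33 in ATC (adjusted p = 3.45e-05), 1.70 ± 0.35 in PTC (adjusted p = 0.00236) and 1.46 ± 0.29 in recurrent arrays (adjusted p = 0.000465), each against normal. In PTC its other probe sets differed by 0.59 and 1.42 (limma adjusted p = 0.455 and 0.0111), and in ATC and recurrent arrays they were called higher. Of 8 genes of the parallel MAP kinase branches, 2 rose and 0 fell in ATC against normal, near the 31.5% of all probe sets called there. The counts were 1 and 0 after another quantile normalization or with arrays centred on their medians, where 7192 and 6968 of 22626 probe sets were called. Mapk8, which encodes Jnk1, rose there by 0.77 on the probe set used, and its other probe sets differed by -0.09 and -0.34. Map2k6, an upstream kinase of p38, exceeded PTC by 1.19 in ATC (adjusted p = 0.0247) and by 1.69 in recurrent arrays (adjusted p = 0.000572).

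Of 13 genes known to be induced by Erk signalling, 9 rose and 1 fell in ATC against normal, with a median difference of 2.03. Of all probe sets 14.7% were called higher and 16.7% lower there. The list was chosen with earlier results of these arrays known. Lif, an interleukin-6 family cytokine, rose by 3.89 ± 0.34 (adjusted p = 3.76e-08) on its brighter probe set and by 0.46 (adjusted p = 0.0343) on the other, Ier3 by 3.75 ± 0.50 (adjusted p = 7.51e-06), Fosl1, an AP-1 subunit, by 3.50 ± 0.67 (adjusted p = 0.000378) and Dusp6, the phosphatase of Erk, by 2.03 ± 0.27 (adjusted p = 5.47e-06). Spry1, which encodes a Sprouty inhibitor and is named after its value was seen, was the gene that fell, at -0.52. In PTC against normal 5 rose and 0 fell, beside 5.16% and 6.66% of all probe sets. In a fit of the 2 groups alone or with array weights 9 rose. There 9355 and 10648 of all 22626 probe sets were called in either direction, more than in the main fit. By limma on all arrays, Ccnd1, cyclin D1, rose by 3.41 ± 0.34 (adjusted p = 5.45e-07) and Dusp6 by 2.12 ± 0.28 (adjusted p = 2.97e-05). In ATC against PTC, whose Braf means were 11.31 and 7.78, 4 of the 13 rose and 0 fell, beside 8.64% of all probe sets called higher, and the median difference of the 13 was -0.01. Those that rose were Ier3 by 2.26 ± 0.56 (adjusted p = 0.0072), Fosl1 by 2.16 ± 0.74 (adjusted p = 0.0474), Lif by 1.69 ± 0.38 (adjusted p = 0.00381) and Myc, the growth regulator, by 1.44 ± 0.49 (adjusted p = 0.0449). The other probe sets of Fosl1 and Lif differed by 1.12 and 0.44 (limma adjusted p = 0.0866 and 0.0986). In the same comparison Dusp6 differed by -0.09 ± 0.29 (adjusted p = 0.884) and Etv4, an ETS factor gene, by -0.01 ± 0.35 (adjusted p = 0.989).

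In recurrent arrays 8 of the 13 rose and 1 fell against normal, beside 15.2% and 16.9% of all probe sets. Without JK titles 0 rose, where 1371 of 22626 probe sets were called in either direction. Against ATC 0 rose and 5 fell (1 in a fit of the 2 groups alone, 2 within JK titles and 0 without them), and against PTC 0 rose and 5 fell (3 in a fit of the 2 groups alone or within JK titles). Of all probe sets 2.47% were called lower against ATC and 11.1% against PTC. Against ATC, 127 of 22626 were called in either direction with the 2 groups alone, 1345 within JK titles and 65 without them. Few calls in any list are thus common in the first and last of these fits. Against PTC 2760 were called with the 2 groups alone and 6587 within JK titles. Against ATC Lif fell by 2.21 ± 0.32 (adjusted p = 0.000214), with -0.30 (adjusted p = 0.344) on its other probe set, and Dusp6 fell by 1.26 ± 0.24 (adjusted p = 0.00417) on the log2 scale, while Fosl1 (-0.80, adjusted p = 0.572) and Myc (-0.40, adjusted p = 0.688), did not pass the test. Dusp6 still exceeded normal by 0.77 (adjusted p = 0.0131) in recurrent arrays.

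**Figure D5:**
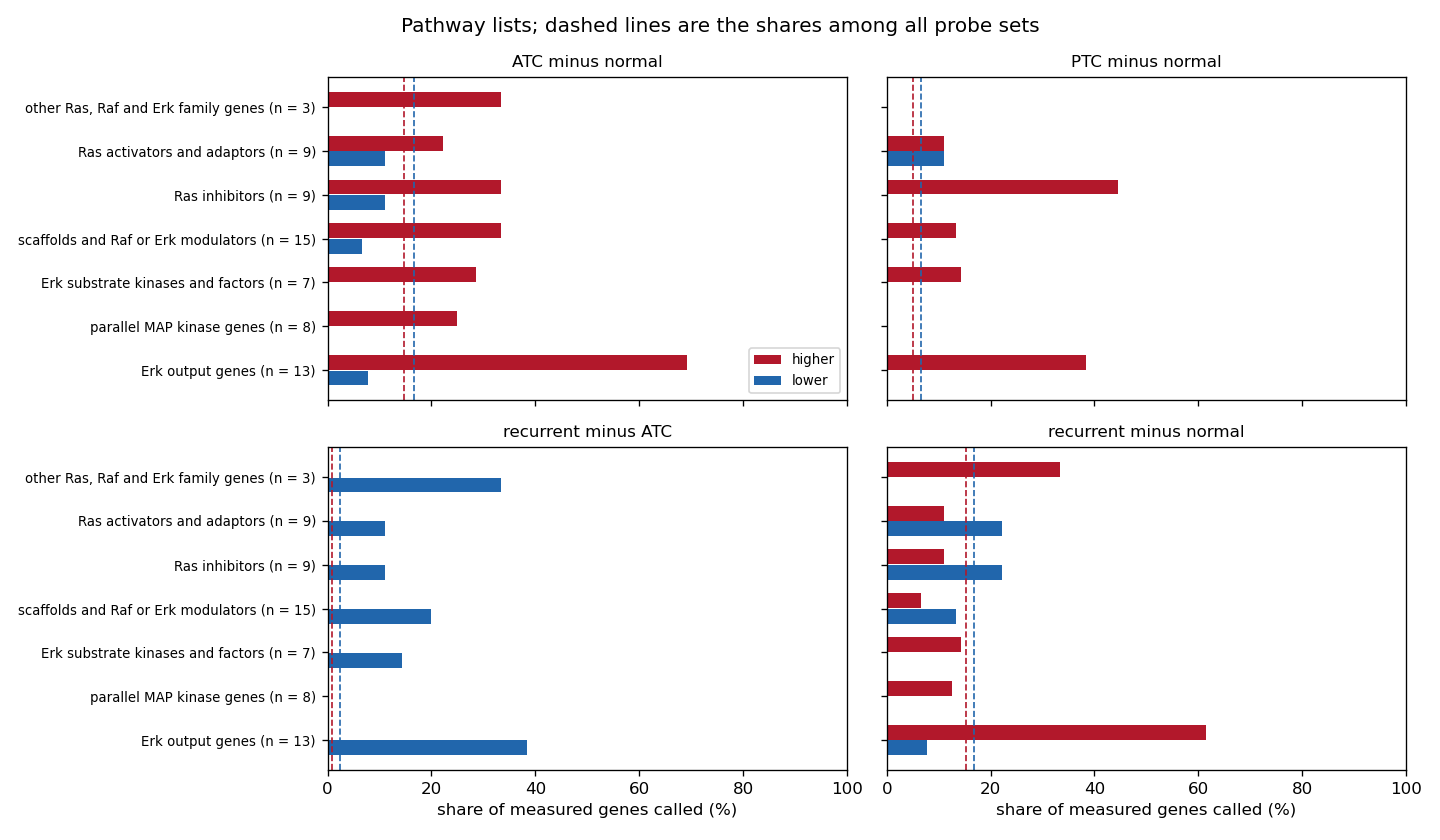
Share of the measured genes of each pathway list called higher (red) or lower (blue) by limma (x axis, %) in 4 comparisons; dashed lines are the shares among all probe sets. The Erk output list has 9 of 13 genes higher in ATC against normal, beside 14.7% of all probe sets, and 5 of 13 lower in recurrent against ATC, beside 2.47%.

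Markers of cell types moved with the same groups. The mean level of 9 thyroid follicular genes ran from 10.36 to 10.96 over normal arrays, 8.41 to 9.16 over PTC, 5.68 to 7.87 over ATC and 5.39 to 8.29 over recurrent arrays, and 9 of 9 fell in ATC and in recurrent arrays against normal. In PTC against normal 5 of 9 fell. Of all probe sets 16.7% were called lower in ATC, 16.9% in recurrent arrays and 6.66% in PTC, each against normal. Tg, thyroglobulin, had a median of 14.88 over normal pools, 13.47 over PTC, 5.51 over ATC and 5.11 over recurrent arrays. Its highest values in ATC (13.48) and among recurrent arrays (14.18) lay within the PTC range of 13.11 to 14.24. Cell division genes rose in 5 of 5 cases in ATC and in recurrent arrays against normal, with mean levels of 5.14 to 7.03 in normal, 7.35 to 8.37 in PTC, 8.84 to 9.89 in ATC and 6.76 to 10.63 in recurrent arrays. Macrophage markers rose in 7 of 8 cases in ATC against normal, with mean levels of 8.12 to 9.81, 9.20 to 10.28, 10.48 to 11.24 and 7.66 to 11.31 in the same order of groups, and fibroblast markers rose in 4 of 8. Of all probe sets 14.7% were called higher in ATC and 15.2% in recurrent arrays, each against normal.

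Beside the fall of Braf in recurrent arrays against ATC, 3 of 5 epithelial markers fell and 0 rose, with mean levels of 11.53 to 12.71 in normal, 12.39 to 12.68 in PTC, 11.24 to 13.27 in ATC and 8.92 to 11.46 in recurrent arrays. Macrophage, fibroblast and cell division markers had 0 calls in that comparison. Of all probe sets 0.888% were called higher and 2.47% lower there. Among other tissues a dissected gland can hold, 3 of 3 C-cell, 2 of 2 parathyroid and 4 of 4 adipocyte markers fell in ATC against normal, and endothelial, T cell and B cell markers fell in 1 of 6, 1 of 5 and 1 of 3 cases. Of all probe sets 16.7% were called lower there, so the endothelial, T cell and B cell counts are near that share. Skeletal muscle markers had 0 of 5 calls in any comparison. In such bulk samples a lower share of cells of a type and less RNA per cell cannot be told apart, and the part of these markers in the Braf and Nras differences was not tested.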

How the data were processed

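Per the submitters' processing notes, the authors made the deposited log2 values with RMA in Partek, whose versions the sources used here do not give. RMA corrects background, equalizes the distributions of arrays and summarizes probes, so a shift of all genes together would not be seen. All 22690 probe sets on 24 arrays were read. Without 64 control probe sets, 22626 were tested. Gene names come from the platform annotation given with the data (20393 with 1 symbol, 691 with several, 1606 with none), with symbols updated by gene identifier through RefSeq GRCm38.p6, where 20364 matched. Members were found by symbol, and 0 member symbols stood in probe sets with several. Compared in 276 pairs, 0 arrays were identical, with correlations up to 0.993.

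Groups come from the tissue label. In limma 3.58.1 (R 4.3.3), 1 linear model of the 4 group means took all 24 arrays, with Benjamini-Hochberg adjustment over all 22626 probe sets and calls at an adjusted p under 0.05. The comparison with Braf used the same fit on differences from Braf within each array. Intervals are 95% confidence intervals. The Braf value was also tested with exact two-sided permutation tests (SciPy 1.17.1, NumPy 2.4.6, pandas 2.3.3, Python 3.11.15), and matplotlib 3.10.9 drew the figures. The fit was first tested on simulated data with known changes. Lists are described by counts and medians, without a set test, for 12393 genes each read through the probe set of highest mean.

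The members and lists were chosen with earlier results of these data known. The genes named are the members, up to 3 called genes per pathway list and comparison with the largest differences, the 5 genes most correlated with Braf and 3 for each other member, Tg, Dusp6 and Mki67, of which the text names a part. Others are marked where they appear. Alternatives were a fit of 2 groups alone, title series or bare-number titles as a block, each title series alone, WT pools alone, 1 probe set per gene, means of probe sets, another quantile normalization, centring on medians, array weights, a filter on dim probe sets (above 6 on at least 4 arrays, leaving 17192) and leaving out each array.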

Additional observations from a re-analysis of the deposited data

Results flagged for a closer look

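In 32 groups of 4 to 9 arrays, 1 for each of the 8 probe sets in each of the 4 tissues, the most extreme array was compared with its neighbours by Dixon's ratio, the gap to the nearest value over the whole range. About 1 in 20 groups is marked by chance. Recurrent array 2 was marked for Braf: it read 11.14, the nearest recurrent array 7.14, and the ratio was 0.724. Normal array 2 was marked for the Map2k2 probe set 1460636_at: it read 8.76 against 8.56 on the nearest pool, with a ratio of 0.726. The latter distance is small on the log2 scale, and the brighter Map2k2 probe set read 10.34 on that pool, within the range of the others. What set recurrent array 2 apart was not tested.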

How the results depend on the processing

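The Braf differences of ATC from normal and from PTC kept their direction and their call under every alternative run. Among arrays with JK in the title alone, Braf in recurrent against ATC was -3.81 (adjusted p = 0.0613), so that 0 member probe sets were called there. Of all 22626 probe sets 1345 were called there. Braf in PTC against normal was called in the fit of the 2 groups alone (1.53, adjusted p = 1.51e-05) and with array weights (1.52, adjusted p = 3.5e-05), and ranged from 1.47 to 1.61 when 1 array was left out. Braf in recurrent against PTC was -1.42 with array weights (adjusted p = 0.00301) and -1.59 to -0.90 with 1 array left out. In each, leaving out recurrent array 2 made the call. The count of member probe sets called was 2 in ATC against normal, 2 in ATC against PTC, 1 in recurrent against normal and 1 in recurrent against PTC with 1 probe set per gene or with means of probe sets, which leave 5 values to test. Of all 12393 genes, 4245, 2127, 4193 and 2706 were called with 1 probe set per gene, in the same order. With means of probe sets 4269, 2169, 4169 and 2741 were called. In PTC against normal the member count was 2 in the fit of the 2 groups alone, 1 with JK titles alone, 3 with array weights and 0 to 1 with 1 array left out. Of all 22626 probe sets, 9355 were called with the 2 groups alone, 5096 with JK titles alone and 10648 with array weights. In recurrent against normal the member count was 5 with bare-number titles as a block, 0 without JK titles and 5 with array weights. Of all 22626 probe sets 7481, 1371 and 10810 were called in these fits. In recurrent against PTC the member count was 5 with array weights, where 10239 of all probe sets were called. The member counts thus moved with the calls over all probe sets and are not particular to the members. Other-member probe sets that differed from Braf numbered 7 in PTC against normal in the fit of the 2 groups alone and with array weights, and 0 to 7 with 1 array left out. They numbered 1 in recurrent against normal with bare-number titles as a block, 3 with array weights and 0 to 2 with 1 array left out, and 7 in recurrent against PTC with array weights and 0 to 7 with 1 array left out. For these differences from Braf, calls over all probe sets were not counted under the alternatives. Apart from the array left out and the number of values tested, the cause was not tested. No value changed direction with its call. No paired analysis was possible because replicate numbers were given in record order and the labels give groups no shared numbers. The number of arrays limits the precision.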

Other observations

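Mki67, a marker of dividing cells, had a lowest, median and highest level of 5.91, 6.35 and 8.56 in normal pools, 8.46, 9.23 and 9.65 in PTC, 9.63, 10.09 and 10.27 in ATC and 7.91, 10.46 and 12.37 in recurrent arrays (log2). The recurrent range of Mki67 ran from below the lowest PTC array to above the highest ATC array.

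The promoter window of Hras, which had no measured value here, held 3 GC box, 1 CCAAT and 1 ETS core match and was 69.0% G and C.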
